A study of Mus musculus with 119 samples.

Results

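*Socs1*, *Socs2*, *Socs3* and *Cish* are 4 of the 18098 genes whose expression was measured by RNA-seq in mouse bone marrow-derived macrophages (BMDMs) stimulated with LPS, a bacterial ligand of the receptor TLR4. Their rows were taken by gene symbol, and each has 1 value in every library. WT cells gave 22 libraries, of which 6 each were from unstimulated cells and from cells given LPS at 100 ng/ml for 0.5 and 1 h, and 4 from cells given LPS for 2 h. *Map3k8*[D270A] cells, in which the kinase TPL-2 is catalytically inactive, gave 6 libraries at each of the 4 times, and *Elk1*-/-*Elk4*-/- cells, which lack a pair of ternary complex factors (TCFs) acting below ERK1/2, gave 4 at each time. *Nfkb1*[SS/AA] cells, in which the NF-κB1 p105 precursor cannot be phosphorylated by the IκB kinase complex and does not release TPL-2, gave 6 libraries each without LPS and at 0.5 and 1 h. WT cells given the MKK1/2 inhibitor PD0325901 at 0.1 µM, which blocks activation of ERK1/2, gave 3 libraries each after 10, 40 and 70 min of inhibitor alone and 6 each after LPS for 0.5 and 1 h that followed 10 min of inhibitor. The solvent DMSO was given for 10 min without LPS to cells of 3 libraries. WT cells given the RSK1/2 inhibitor RSKi47 at 2 µM, 10 min before LPS, gave 4 libraries at each time except 0.5 h, which has 3. All cells were of the strain C57BL/6(NIMR) by the labels, were grown from bone marrow of both femurs in L-cell conditioned medium, and were replated overnight in medium with little serum. No age is stated for the mice, and the labels do not say whether each replicate number is a separate animal, so p values measure the spread between libraries. The labels place the WT and *Map3k8*[D270A] libraries in the same experiment and each other genotype or inhibitor in an experiment of its own, and no library combines solvent with LPS. Genotype or inhibitor and experiment therefore cannot be told apart in any comparison of those libraries with WT.

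The 4 genes encode members of the SOCS family of intracellular proteins. Cytokines such as IL-6, IL-10, interferons and growth hormone bind receptors that activate JAK kinases, which phosphorylate STAT transcription factors, and STATs in turn induce *Socs* and *Cish* transcription. Each protein has an SH2 domain, which binds phosphotyrosine, and a SOCS box, which recruits a ubiquitin ligase built on cullin-5, so that the family closes a negative feedback loop. SOCS1 and SOCS3 also block the JAK kinases directly. SOCS1 restrains signaling by interferons, SOCS3 restrains signaling by gp130 receptors such as that of IL-6, and CIS (the product of *Cish*) and SOCS2 act on receptors that signal through STAT5. In macrophages, *Socs1* and *Socs3* are known to be induced by TLR ligands.

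The genes lie on 4 chromosomes of the mm10 assembly (GRCm38.p6). *Socs1* spans chr16:10783808-10785536, *Socs2* chr10:95383903-95417321, *Socs3* chr11:117966079-117970336 and *Cish* chr9:107296659-107302784. Windows of 250 bases before a start that RefSeq gives on GRCm38.p6 were found for *Socs1*, *Socs3* and *Cish*. That of *Socs1* (chr16:10785537-10785786, minus strand) adjoins the start of the gene's span and is printed 5′ to 3′, with the matches of the ETS core CCGGAA, read on either strand, in capitals, because ETS proteins include the TCFs removed in *Elk1*-/-*Elk4*-/- cells.
Socs1: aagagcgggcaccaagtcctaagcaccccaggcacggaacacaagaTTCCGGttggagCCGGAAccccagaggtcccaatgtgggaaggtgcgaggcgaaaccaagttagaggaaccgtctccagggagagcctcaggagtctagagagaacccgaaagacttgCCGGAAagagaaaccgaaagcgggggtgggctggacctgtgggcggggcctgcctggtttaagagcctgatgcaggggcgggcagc
The *Socs1* promoter held 3 matches of the ETS core, at bases 204 to 199 (on the other strand), 192 to 187 and 86 to 81 before the start, and 12% of the 32851 promoters in the table hold at least 1. The *Socs3* window (chr11:117969367-117969616, minus strand) held 1 match of the STAT motif TTCNNNGAA, which 7.02% of all promoters hold. It lies inside the RefSeq span of *Socs3* and upstream of the coding GENCODE transcript, which starts 180 bases after it, so it is the window of 1 of several starts and its sequence is not shown. The AP-1 motif TGANTCA, the CArG box and the NF-κB site had no match in these windows, and 6.75%, 1.47% and 3.9% of all promoters hold them. The *Cish* window held no match of the 5 motifs, and 2 STAT matches came in when the first 50 bases of the gene were added, a window in which 8.3% of all promoters hold 1. GENCODE starts 1 coding *Cish* transcript upstream of that window, so it too depends on the gene model. A match is a description of the letters in the window and was not compared with the expression values.

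Values are the deposited normalized levels on a log2 scale, and differences between groups are differences of these values. No source used here names their transformation, and the true log2 fold changes may be larger than the differences printed. A gene was called different at an adjusted p below 0.05 (limma, Benjamini-Hochberg over all genes tested). The share of all genes called, in either direction, is given with each count, except counts from most alternative analyses. Depth per library cannot be read from this scale. All 8 macrophage markers were at or above a linear value of 10 in every library, and their sum lay between 18.35 and 19.23 on the log2 scale. The sum of 8 neutrophil markers was 10.04 to 11.04 in *Elk1*-/-*Elk4*-/- libraries, 6.24 to 7.74 in WT libraries and 6.14 to 8.81 over all libraries of other genotypes and inhibitors, and 3 of the markers (*Ly6g*, *Elane* and *Mpo*) stayed under the linear value of 10 throughout. In bulk RNA a change in level per cell and a change in the share of cells cannot be told apart. *Elk1* was 6.17 to 6.59 in *Elk1*-/-*Elk4*-/- libraries and 9.04 to 9.49 in WT libraries, and *Elk4* was 5.51 to 5.88 against 7.57 to 8.49. The other alleles are point mutations, which mRNA levels do not check. RSKi47 replicate 4, *Nfkb1*[SS/AA] replicate 2 at 1 h and *Map3k8*[D270A] replicate 4 at 0.5 h lay farthest from their groups over all genes. Values without these replicates, left out at every time, are given where this made or ended a call, and for some of the other calls. *Socs1*, *Socs3* and *Cish* were above the linear value of 10 in every library and *Socs2* in 96 of them.

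In WT BMDMs the 4 genes responded to LPS at different times. *Socs3* rose most within 0.5 h, *Cish* and *Socs1* rose most between 1 and 2 h, and *Socs2* was called at 2 h alone. The interval from 1 to 2 h is longer than the earlier ones, so these amounts are not rates. *Socs3* was 8.68, 8.74 and 8.81 (lowest, median and highest of 6) without LPS, 11.60, 12.09 and 12.65 at 0.5 h, 13.69, 13.87 and 14.09 at 1 h, and 14.20, 14.38, 14.49 and 13.94 in replicates 4 to 7 at 2 h. Every library with LPS lay above every library without. The difference from unstimulated cells was 3.39 (SE 0.11, adjusted p = 2.93e-32) at 0.5 h, 5.13 (SE 0.11, adjusted p = 6.82e-41) at 1 h and 5.51 (SE 0.12, adjusted p = 1.43e-40) at 2 h. By size of difference *Socs3* stood in place 6 of 11884 genes at 0.5 h, place 8 at 1 h and place 22 at 2 h.

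*Cish* was 4.46, 4.73 and 4.95 (lowest, median and highest of 6) in unstimulated WT cells, 5.23, 5.47 and 5.96 at 0.5 h, 7.39, 7.60 and 8.04 at 1 h, and 10.73, 11.10, 11.15 and 10.24 in replicates 4 to 7 at 2 h. The groups of neighbouring times did not overlap. Its difference from unstimulated cells was 0.76 (SE 0.16, adjusted p = 0.000365) at 0.5 h, 2.95 (SE 0.16, adjusted p = 2.18e-23) at 1 h and 6.08 (SE 0.18, adjusted p = 1.2e-35) at 2 h. That placed *Cish* 109 of 11884 genes by size at 0.5 h, 65 at 1 h and 7 at 2 h. *Socs1*, the inhibitor of interferon signaling, was 5.25, 5.54 and 5.57 (lowest, median and highest) without LPS, 5.37, 5.60 and 5.73 at 0.5 h, 6.81, 7.02 and 7.21 at 1 h, and 10.18, 10.38, 10.23 and 9.64 in replicates 4 to 7 at 2 h. The unstimulated and 0.5 h libraries overlapped (difference 0.11, 95% interval -0.16 to 0.38), and the differences of 1.53 (SE 0.13, adjusted p = 1.07e-14) at 1 h and 4.63 (SE 0.15, adjusted p = 2.16e-33) at 2 h were called. *Socs2* was 3.31, 3.48 and 3.59 without LPS, 3.20, 3.51 and 3.69 at 0.5 h and 3.44, 3.51 and 3.81 at 1 h, near the linear value of 10 (3.32 on this scale). At 2 h it was 4.40, 4.57, 4.96 and 4.15 in replicates 4 to 7, all above the earlier libraries, and the difference from unstimulated cells was 1.06 (SE 0.10, adjusted p = 1.03e-13). Of the 4 genes, 2 were called at 0.5 h, 3 at 1 h and 4 at 2 h, all higher, where 11.6%, 46.8% and 71.5% of all genes were called.

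**Figure D1:**
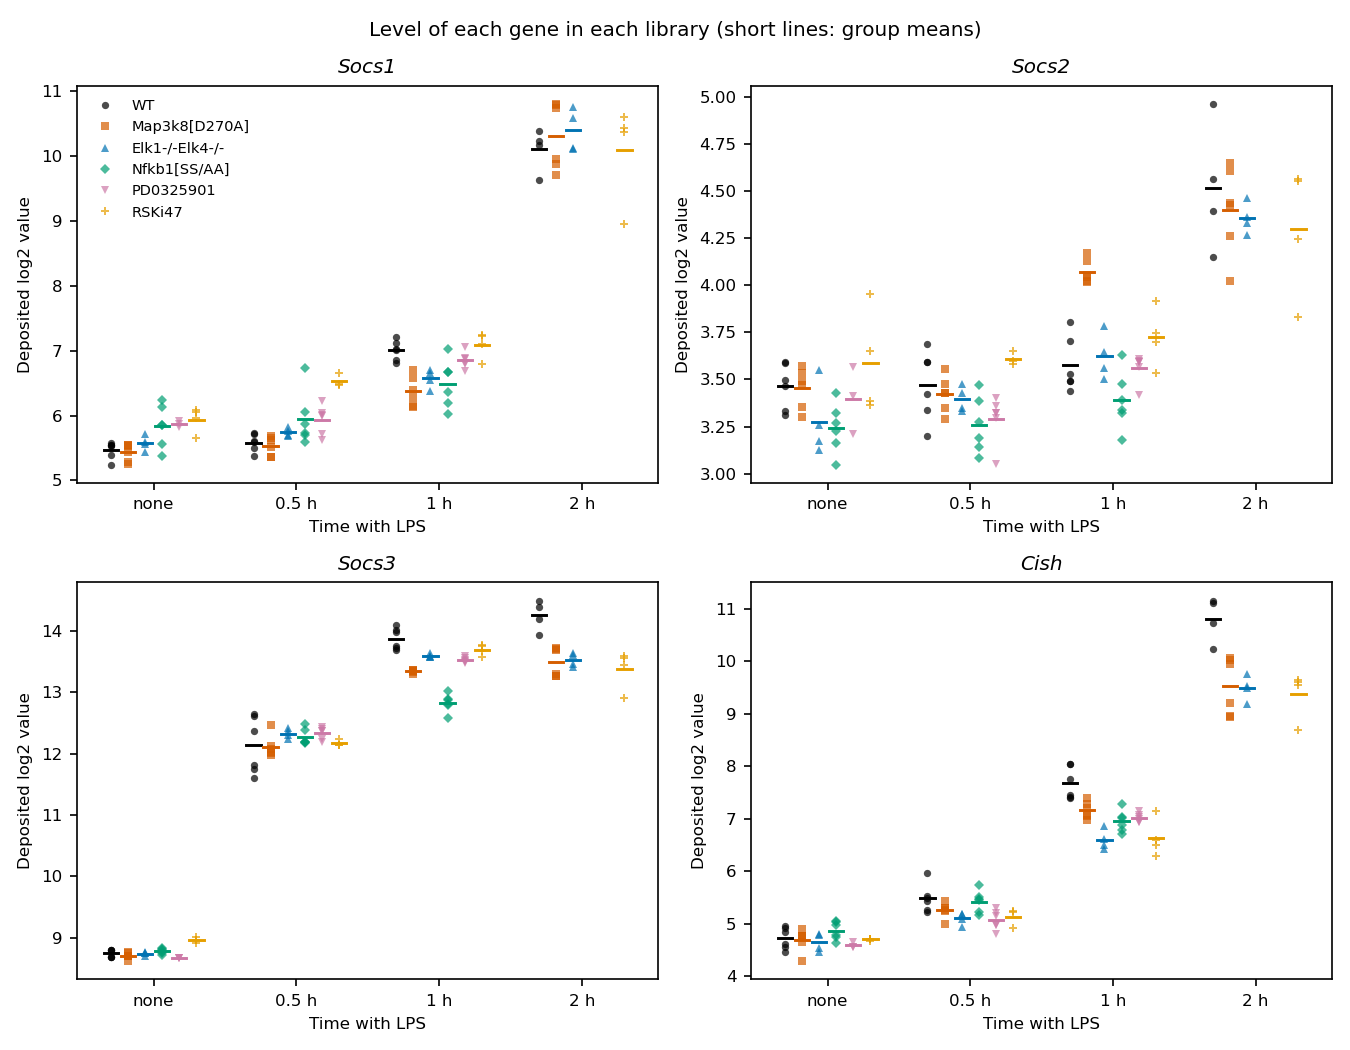
Deposited log2 value (vertical axis) of *Socs1*, *Socs2*, *Socs3* and *Cish* in each library by time with LPS (horizontal axis), with 1 point for each library and a short line for each group mean. WT *Socs3* reached a mean of 12.13 at 0.5 h, whereas WT *Socs1* was at 5.58 then and at 10.11 at 2 h. PD0325901 without LPS shows the 10 min libraries.

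*Socs3* was called at 0.5 h in every other genotype and inhibitor. *Socs3* rose by 3.41 at 0.5 h in *Map3k8*[D270A] cells, 3.58 in *Elk1*-/-*Elk4*-/- cells, 3.48 in *Nfkb1*[SS/AA] cells, 3.60 with PD0325901 (against 40 min of inhibitor alone) and 3.21 with RSKi47, with adjusted p of 4.7e-29 or smaller in each. *Socs1* at 0.5 h was not called in any of them. Its largest difference then was 0.60 (adjusted p = 0.0848) with RSKi47, where all 3 libraries at 0.5 h lay above the 4 without LPS, and this was called under quantile normalization (0.62, adjusted p = 0.0378) and in a fit of only the groups compared (adjusted p = 0.023). *Socs1* was called at 1 h in all 5, by 0.94, 0.99, 0.65, 1.04 and 1.16 in the same order. At 2 h it had risen by 4.87 in *Map3k8*[D270A] cells, 4.81 in *Elk1*-/-*Elk4*-/- cells and 4.15 with RSKi47. *Cish* at 1 h was higher than without LPS by 2.47, 1.95, 2.09, 2.21 and 1.93 in the 5 arms, and at 2 h by 4.83, 4.85 and 4.67 in the 3 arms that have this time.

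*Socs2* was called higher at 1 h in *Map3k8*[D270A] cells (0.62, SE 0.09, adjusted p = 6.86e-08) and *Elk1*-/-*Elk4*-/- cells (0.35, SE 0.11, adjusted p = 0.0111), the latter call being lost without replicate 1, 3 or 4 of that genotype (0.33, 0.29 and 0.29, adjusted p = 0.0513, 0.101 and 0.0996). Under PD0325901 it was called lower at 0.5 h (-0.32, SE 0.11, adjusted p = 0.0418), and this call was lost without PD0325901 replicate 1, 2, 3, 5 or 6. It was also lost with the replicate number as a fixed block (-0.29, adjusted p = 0.0527) and under quantile normalization (-0.23, adjusted p = 0.147). Of 16 alternatives 8 did not call it. In *Map3k8*[D270A] cells 2, 4 and 4 of the 4 genes were called at 0.5, 1 and 2 h, all higher, where 5.08%, 41.9% and 69.5% of all genes were called. The counts were 1, 4 and 4, all higher, in *Elk1*-/-*Elk4*-/- cells (4.96%, 33.3% and 67.2% of all genes), 2 and 3 at 0.5 and 1 h in *Nfkb1*[SS/AA] cells (14.6% and 44.4%), 2 and 3 with PD0325901 (14.9% and 43.6%), and 1, 3 and 4 with RSKi47 (5.1%, 29% and 62.2%), all higher except *Socs2* at 0.5 h with PD0325901. The *Cish* call at 0.5 h in *Map3k8*[D270A] cells (0.56, adjusted p = 0.0184) was lost without replicate 4 (0.48, adjusted p = 0.121).

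The comparison of *Map3k8*[D270A] with WT cells addresses the part of TPL-2 kinase activity in the response. *Socs3* and *Cish* were lower in *Map3k8*[D270A] cells at 1 and 2 h, *Socs1* was lower at 1 h and not at 2 h, and *Socs2* was higher at 1 h. At 1 h *Socs1* was 6.13, 6.34 and 6.71 (lowest, median and highest of 6) in *Map3k8*[D270A] and 6.81, 7.02 and 7.21 in WT libraries, *Socs3* was 13.30, 13.35 and 13.36 against 13.69, 13.87 and 14.09, and *Cish* was 6.97, 7.14 and 7.39 against 7.39, 7.60 and 8.04. *Socs2* was 4.01, 4.05 and 4.17 against 3.44, 3.51 and 3.81. For each of the 4 genes the 2 groups did not overlap at 1 h, although for *Cish* the ends of the ranges round to the same value. Overlap of libraries, here and in the other comparisons, was not counted over all genes. The differences were -0.63 (SE 0.13, adjusted p = 0.000717) for *Socs1*, 0.50 (SE 0.09, adjusted p = 8.14e-05) for *Socs2*, -0.53 (SE 0.11, adjusted p = 0.000575) for *Socs3* and -0.52 (SE 0.16, adjusted p = 0.025) for *Cish*, and 9.79% of all genes were called at this time. Without WT replicate 4, 5 or 6, or *Map3k8*[D270A] replicate 2 or 6, *Cish* at 1 h was not called (-0.44 to -0.50, adjusted p = 0.0512 to 0.0963).

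At 2 h *Socs3* was 13.26, 13.49 and 13.72 (lowest, median and highest of 6) in *Map3k8*[D270A] cells and *Cish* was 8.94, 9.57 and 10.06, and all 6 libraries lay below the 4 WT libraries for both genes. The differences were -0.76 (SE 0.12, adjusted p = 2.5e-06) for *Socs3* and -1.29 (SE 0.18, adjusted p = 6.11e-08) for *Cish*, which stood in place 38 of 11884 genes by size. *Socs1* was 9.71, 10.35 and 10.80 against 9.64 to 10.38 in WT, with overlapping groups and a difference of 0.20 (95% interval -0.10 to 0.51, adjusted p = 0.342). *Socs2* overlapped as well (-0.12, 95% interval -0.32 to 0.09). So 2 of the 4 genes were called at 2 h, both lower, where 27.7% of all genes were called. The libraries fell into 2 groups of replicates, described below, the second with replicate 7 as its only WT library at 2 h. Within these groups the differences were -0.65 and -0.67 for *Socs3*, -0.99 and -1.21 for *Cish* and 0.51 and 0.21 for *Socs1*. For *Socs3* and *Cish* both were smaller in size than the pooled difference. Without LPS and at 0.5 h none of the 4 was called by limma, nor had any an unadjusted p below 0.05 (smallest 0.732 and 0.156), and 1.44% and 1.37% of all genes were called.

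The change from unstimulated cells was itself compared between the genotypes. The LPS response of *Cish* at 2 h was 1.25 smaller in *Map3k8*[D270A] than in WT cells (-1.25, SE 0.24, adjusted p = 8.01e-05) and that of *Socs3* was 0.73 smaller (-0.73, SE 0.17, adjusted p = 0.00113). At 1 h the response of *Socs2* was larger by 0.51 (SE 0.13, adjusted p = 0.017), and this call was lost without WT replicate 5 (0.46, adjusted p = 0.0773) or *Map3k8*[D270A] replicate 3 (0.47, adjusted p = 0.0727). Of 24 alternatives 4 did not call it (highest adjusted p = 0.171). The differences in response at 1 h were -0.60 for *Socs1* and -0.49 for *Socs3* (both adjusted p = 0.102) and -0.48 for *Cish* (adjusted p = 0.497). With culture as a random replicate block the *Socs1* value was called (adjusted p = 0.0264). All 3 were called in WT replicates 4 to 6 with *Map3k8*[D270A] replicates 1 to 3 (-0.91, -0.61 and -0.70, adjusted p = 0.000107, 0.000107 and 0.016) and none in the remaining replicates. That split was chosen from the data, so its p values only describe it. At 0.5, 1 and 2 h, 0, 1 and 2 of the 4 genes were called, where 0.109%, 2.02% and 15.5% of all genes were called, and at 0.5 h no gene of the 4 had an unadjusted p below 0.05.

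**Figure D2:**
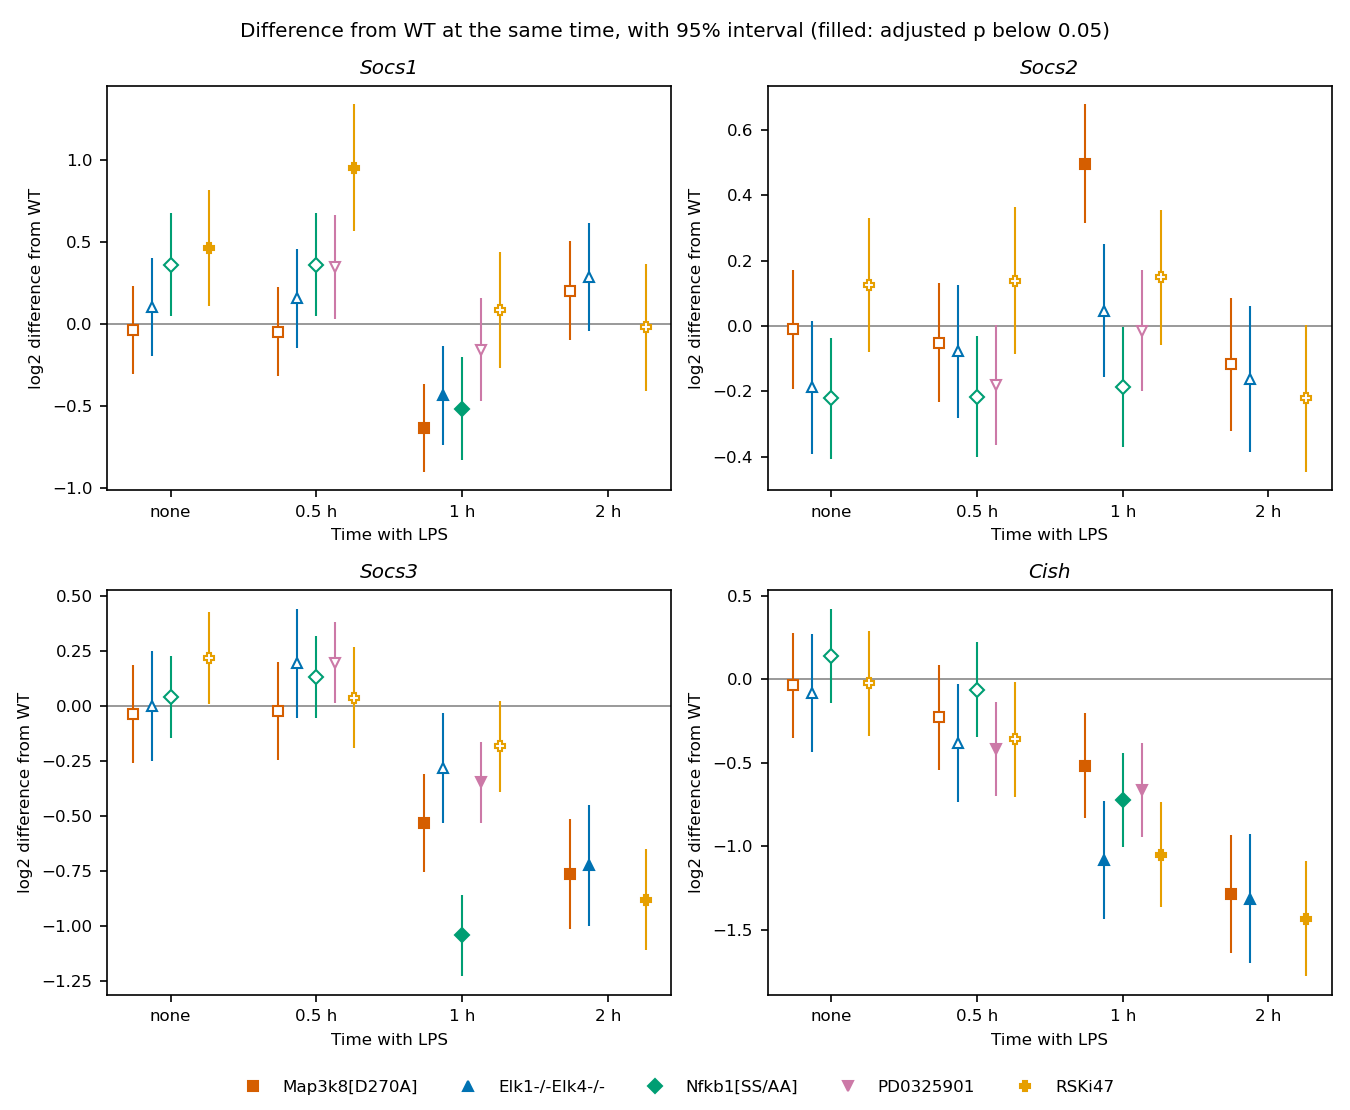
Difference in log2 value from WT at the same time with LPS (vertical axis), with its 95% interval, for each gene and each genotype or inhibitor by time (horizontal axis). Filled symbols had an adjusted p below 0.05. *Cish* was called lower in every arm compared at 1 and 2 h, from -0.52 in *Map3k8*[D270A] cells at 1 h to -1.43 with RSKi47 at 2 h.

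The labels name no batches within this experiment, but deviations from the group means correlated within WT replicates 4 to 6 and 7 to 9 (median 0.27) and were opposed between them (-0.37), and likewise for *Map3k8*[D270A] replicates 1 to 3 and 4 to 6 (0.14 and -0.24). WT and *Map3k8*[D270A] libraries that share the numbers 4 to 6 also deviated in opposite directions (median -0.33), so WT replicates 4 to 6 were set beside *Map3k8*[D270A] replicates 1 to 3, and the rest beside each other. This split was chosen from the data, and the tests that use it describe it. The second group has 1 WT library at 2 h. *Socs3* at 0.5 h was 11.60 to 11.82 in WT replicates 4 to 6 and 12.36 to 12.65 in WT replicates 7 to 9, whereas *Map3k8*[D270A] libraries were 11.97 to 12.12 and 12.01 to 12.47. *Socs3* at 0.5 h was thus higher in *Map3k8*[D270A] than in WT cells by 0.31 in the first group (adjusted p = 0.00606) and lower in the second (-0.35, adjusted p = 0.043). The difference between the replicate groups was -0.67 (SE 0.11, adjusted p = 0.000185), and 0.913% of 11833 genes were called in this test. At 2 h, where the pooled comparison draws unequally on the replicate groups, *Socs1* was higher in *Map3k8*[D270A] cells by 0.51 in the first (adjusted p = 0.000117) and by 0.21 in the second, *Socs3* was lower in both (-0.65 and -0.67), and so was *Cish* (-0.99 and -1.21). At 1 h the values were -0.79 and -0.47 for *Socs1*, 0.45 and 0.54 for *Socs2*, -0.67 and -0.39 for *Socs3*, and -0.70 and -0.33 for *Cish*, of which the last was not called (adjusted p = 0.206).

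**Figure D3:**
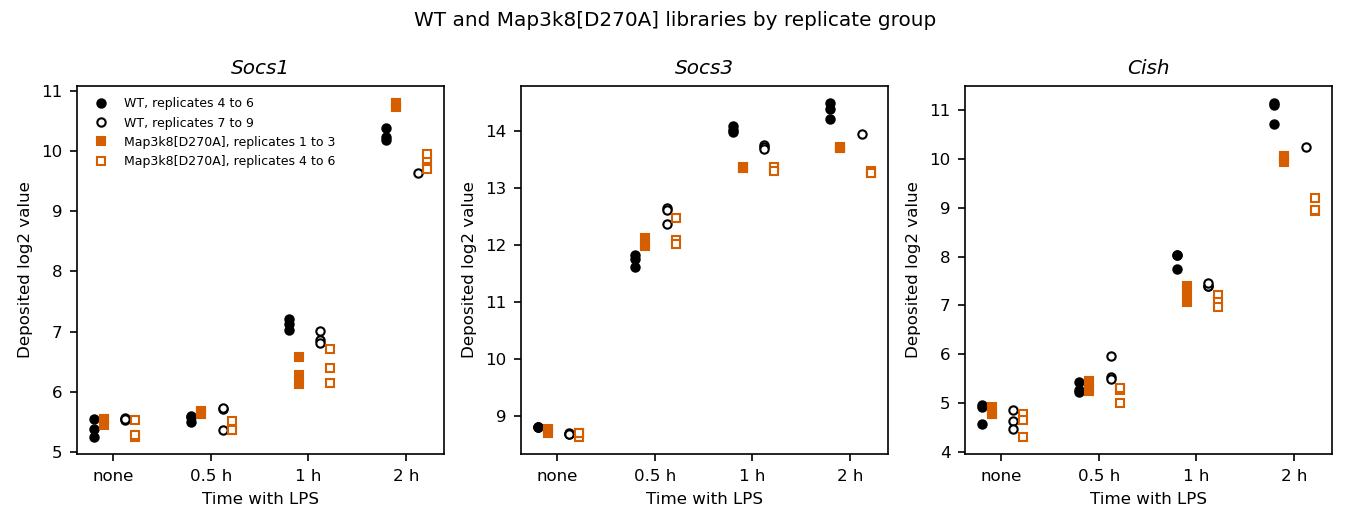
Deposited log2 value (vertical axis) of *Socs1*, *Socs3* and *Cish* in each WT and *Map3k8*[D270A] library by time with LPS (horizontal axis), with filled and open symbols for the 2 groups of replicates. At 0.5 h the WT *Socs3* libraries of the first group (11.60 to 11.82) lie below every *Map3k8*[D270A] library and those of the second (12.36 to 12.65) above all but 1.

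*Elk1*-/-*Elk4*-/- cells, which lack a pair of TCFs, were compared with WT, where genotype and experiment cannot be told apart. *Cish* was lower in them at 1 and 2 h, *Socs3* at 2 h, and *Socs1* at 1 h. *Cish* was 6.87, 6.50, 6.42 and 6.61 in replicates 1 to 4 at 1 h and 9.53, 9.49, 9.19 and 9.76 at 2 h, below every WT library of the same time. The differences from WT were -1.08 (SE 0.18, adjusted p = 1.03e-06) and -1.31 (SE 0.19, adjusted p = 1.17e-07). *Socs3* was 13.59, 13.64, 13.57 and 13.58 in the 4 replicates at 1 h, all below the lowest WT library, with a difference of -0.28 that was not called (95% interval -0.53 to -0.03, adjusted p = 0.0518). It was 13.60, 13.47, 13.41 and 13.64 at 2 h, again below every WT library (-0.73, SE 0.14, adjusted p = 1.36e-05). *Socs3* was called at 1 h in 7 of the alternative analyses, with adjusted p from 0.0151 to 0.0492. *Socs1* was 6.38, 6.66, 6.55 and 6.70 at 1 h, below every WT library (-0.44, SE 0.15, adjusted p = 0.013), and this call was lost without replicate 1 of the knockout (-0.37, adjusted p = 0.0628). At 2 h *Socs1* was 10.59, 10.11, 10.12 and 10.76 and overlapped WT (0.29, 95% interval -0.04 to 0.62).

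*Socs2* did not pass the test in *Elk1*-/-*Elk4*-/- cells at any time, with differences from WT between -0.19 and 0.05. It was called lower without LPS in 3 of 20 alternatives (largest -0.28, adjusted p = 0.031, without knockout replicate 2) and at 2 h without WT replicate 7 (-0.28, adjusted p = 0.0285). Without LPS and at 0.5, 1 and 2 h, 0, 0, 2 and 2 of the 4 genes were called, all lower, in a comparison in which 51.8%, 44.4%, 53.4% and 50.8% of all genes were called. At unadjusted p below 0.05 the first 2 counts were 0 and 1, the 1 being *Cish* at 0.5 h (-0.38, adjusted p = 0.0715). All 4 *Elk1*-/-*Elk4*-/- libraries lay below the lowest WT library for *Cish* at 0.5 h. Of 20 alternatives 4 called it, and the values over all 20 ran from -0.66 to -0.29. The LPS response was smaller than that of WT for *Cish* at 1 h (-0.997, SE 0.25, adjusted p = 0.0186) and 2 h (-1.23, SE 0.26, adjusted p = 0.000439) and for *Socs3* at 2 h (-0.72, SE 0.18, adjusted p = 0.00349). The call for *Cish* at 1 h was lost without WT replicate 4 or *Elk1*-/-*Elk4*-/- replicate 2 or 3 (-0.89, -0.91 and -0.89, adjusted p = 0.0933, 0.139 and 0.137). These are 0, 1 and 2 of the 4 genes at 0.5, 1 and 2 h, where 0.0589%, 1.35% and 16.9% of all genes were called, with no unadjusted p below 0.05 among the 4 at 0.5 h. The sum of the neutrophil markers was higher in these libraries than in all others, and its part in these differences was not tested.

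Set directly against each other at 1 h, *Elk1*-/-*Elk4*-/- cells had less *Cish* (-0.56, SE 0.18, adjusted p = 0.00614) and less *Socs2* (-0.45, SE 0.10, adjusted p = 0.000207) than *Map3k8*[D270A] cells. *Socs1* (0.20, 95% interval -0.10 to 0.50) and *Socs3* (0.25, 95% interval 0.00 to 0.50, adjusted p = 0.0857) were not called. The *Socs3* libraries did not overlap (13.57 to 13.64 in *Elk1*-/-*Elk4*-/- and 13.30 to 13.36 in *Map3k8*[D270A] cells). Of 20 alternatives 2 called this difference, among them a fit of only the groups compared (adjusted p = 5.77e-05). At 2 h none of the 4 genes was called, by adjusted or unadjusted p, and the intervals of the differences were -0.22 to 0.38 for *Socs1*, -0.25 to 0.16 for *Socs2*, -0.21 to 0.29 for *Socs3* and -0.38 to 0.32 for *Cish*. Of all genes, 51.6% were called at 1 h and 49.6% at 2 h.

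In *Nfkb1*[SS/AA] cells *Socs3* had its lowest level at 1 h of all genotypes and inhibitors. It was 12.58, 12.85 and 13.03 (lowest, median and highest of 6), below every WT library, with a difference of -1.04 (SE 0.09, adjusted p = 4.95e-17). *Cish* was 6.72, 6.95 and 7.29, also below every WT library (-0.72, SE 0.14, adjusted p = 1.5e-05). *Socs1* was 6.03, 6.51 and 7.03, and 5 of the 6 libraries lay below the WT range (-0.52, SE 0.16, adjusted p = 0.00568). In replicates 1 to 3 the *Socs1* difference was -0.82 (adjusted p = 0.00013) and in replicates 4 to 6 it was -0.22 (adjusted p = 0.363). This split was chosen after seeing the data, and the difference between its parts was not tested. Replicates 4 to 6 also had more *Socs1* than WT without LPS (0.61, adjusted p = 0.00714) and at 0.5 h (0.64, adjusted p = 0.00466). Over all 6 replicates *Socs1* was 0.36 higher than WT at both times (adjusted p = 0.0703 and 0.0691), and *Socs2* was lower by 0.22 at both (-0.22, adjusted p = 0.056 and 0.0633), without passing the test. The *Socs2* difference was called in 6 of 23 alternatives without LPS, 4 at 0.5 h and 3 at 1 h. Over all 23 alternatives, called or not, the values ran from -0.33 to -0.10.

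Of the 4 genes 0, 0 and 3 were called in *Nfkb1*[SS/AA] cells without LPS and at 0.5 and 1 h, all lower, where 32%, 32.3% and 42.5% of all genes were called, and at unadjusted p below 0.05 the first 2 counts were 2 and 2. The neutrophil marker sum was 6.73 to 8.35 (median 7.29) in these libraries against a median of 6.50 in WT, and its part in the differences was not tested. Without *Nfkb1*[SS/AA] replicate 2 the differences at 1 h were -0.49 for *Socs1*, -1.06 for *Socs3* and -0.69 for *Cish*, all called, and *Socs1* without LPS was called higher (0.42, adjusted p = 0.0452). The LPS response at 1 h was smaller than in WT for *Socs3* (-1.08, SE 0.13, adjusted p = 2.76e-10), *Socs1* (-0.88, SE 0.23, adjusted p = 0.00547) and *Cish* (-0.86, SE 0.20, adjusted p = 0.0016). Without replicate 2 these values were -1.11, -0.91 and -0.81, all called. For *Socs1* the response differed by -0.82 (adjusted p = 0.0567) when replicates 4 to 6 alone were used. These are 3 of the 4 genes at 1 h and 0 at 0.5 h, where 6.07% and 0.309% of all genes were called, and none of the 4 had an unadjusted p below 0.05 at 0.5 h.

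With the MKK1/2 inhibitor PD0325901, *Cish* was lower than in WT cells at both times with LPS, and *Socs3* was lower at 1 h. *Cish* at 1 h was 6.94, 7.01 and 7.15 (lowest, median and highest of 6), below every WT library (-0.66, SE 0.14, adjusted p = 0.000115). At 0.5 h it was 4.80, 5.07 and 5.30, which overlapped WT (-0.41, SE 0.14, adjusted p = 0.0199), and the call was lost without WT replicate 8 (-0.32, adjusted p = 0.0906) or PD0325901 replicate 6 (-0.36, adjusted p = 0.0618), under quantile normalization (-0.33, adjusted p = 0.0516) and with PD0325901 replicates averaged in pairs (adjusted p = 0.0984). *Socs3* at 1 h was 13.48, 13.51 and 13.59, below every WT library (-0.35, SE 0.09, adjusted p = 0.00205). *Socs1* at 1 h was 6.69, 6.84 and 7.06 and overlapped WT (-0.16, 95% interval -0.47 to 0.16), and so did *Socs2* (-0.01, 95% interval -0.20 to 0.17). The counts were 1 of 4 genes at 0.5 h and 2 at 1 h, all lower, and 29.4% and 35.7% of all genes were called. The neutrophil marker sum was 7.29 to 8.81 (median 8.34) in PD0325901, 7.54 to 8.25 in DMSO and 6.24 to 7.74 (median 6.50) in WT libraries, and its part in these differences was not tested.

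The only comparison of PD0325901 with its solvent was after 10 min without LPS. There the 4 genes differed by -0.02 to 0.03, none was called and none had an unadjusted p below 0.05, and limma called 0% of 11971 genes, of which 245 had an unadjusted p below 0.05. The LPS response under PD0325901, against inhibitor alone for the same time, was smaller than in WT for *Cish* at 1 h (-0.74, SE 0.22, adjusted p = 0.0402), and leaving out single replicates ended this call. It was lost without WT replicate 4, 6 or 9 or PD0325901 replicate 1, 2, 3 or 5 (-0.64 to -0.77, adjusted p = 0.0541 to 0.16). At 0.5 h none of the 4 response differences was called and 2 had an unadjusted p below 0.05, *Socs2* (-0.33) and *Cish* (-0.50). The shares of all genes called were 1.49% at 0.5 h and 3.58% at 1 h.

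With the RSK1/2 inhibitor RSKi47, *Socs1* was higher than in WT before and early in the response, and *Cish* and *Socs3* were lower later. *Socs1* was 5.96, 6.08, 6.06 and 5.66 in replicates 1 to 4 without LPS and 6.47, 6.49 and 6.65 in replicates 1 to 3 at 0.5 h, above every WT library of the same time. The differences were 0.47 (SE 0.18, adjusted p = 0.0222; 0.56 without replicate 4) and 0.95 (SE 0.19, adjusted p = 2.63e-05), and the first was lost without WT replicate 5 (0.42, adjusted p = 0.0526), RSKi47 replicate 2 (0.42, adjusted p = 0.0699) or replicate 3 (0.42, adjusted p = 0.0613), and with the replicate number as a fixed block (0.40, adjusted p = 0.0805). The 3 libraries given only the solvent DMSO had *Socs1* at 5.95, 5.90 and 5.70, and those given PD0325901 alone for 10 min at 5.91, 5.83 and 5.86, also above every unstimulated WT library and within the range of RSKi47. *Socs1* with RSKi47 was 7.23, 7.24, 7.10 and 6.80 at 1 h and 10.37, 10.44, 10.59 and 8.95 at 2 h, overlapping WT at both times (0.09, 95% interval -0.27 to 0.44, and -0.02, 95% interval -0.41 to 0.37). Without replicate 4 the difference at 2 h was 0.36 (adjusted p = 0.0915).

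*Cish* with RSKi47 was 7.14, 6.59, 6.28 and 6.51 in replicates 1 to 4 at 1 h and 9.55, 9.65, 9.61 and 8.68 at 2 h, below every WT library of the same time. Its differences from WT were -1.05 (SE 0.16, adjusted p = 2.46e-08) and -1.43 (SE 0.17, adjusted p = 1.84e-11). *Socs3* was 13.58, 13.77, 13.75 and 13.67 at 1 h, which overlapped WT (-0.18, 95% interval -0.39 to 0.02), and 13.44, 13.59, 13.55 and 12.91 at 2 h, below every WT library (-0.88, SE 0.11, adjusted p = 2.28e-10). In unstimulated cells *Socs3* was 8.92 to 9.02 with RSKi47, above every WT library. That difference (0.22, adjusted p = 0.0724) was not called, but 2 of 19 alternatives called it. Without replicate 4 the differences at 2 h were -1.20 (adjusted p = 1.91e-08) for *Cish* and -0.72 (adjusted p = 1.96e-07) for *Socs3*, and that of *Cish* at 1 h was -1.01 (adjusted p = 3.19e-07). *Socs2* did not pass the test at any time (differences -0.22 to 0.15), but at 2 h it was called lower in 5 of 19 alternatives (adjusted p over all 0.0112 to 0.654), among them those without WT replicate 7 (-0.34, adjusted p = 0.0112) and RSKi47 replicate 1 or 2 (both -0.31). Without RSKi47 replicate 4 the *Socs2* difference at 2 h was -0.07 (adjusted p = 0.654). *Cish* at 0.5 h (-0.36, adjusted p = 0.08) was called in 3 of 19 alternatives, and the values over all 19 ran from -0.64 to -0.25. Without LPS and at 0.5, 1 and 2 h, 1, 1, 1 and 2 of the 4 genes were called, where 53%, 48.2%, 52.8% and 52.1% of all genes were called. The sum of 3 stromal markers was 3.81 to 9.04 (median 4.47) in RSKi47 libraries against 2.97 to 3.88 in all others, with *Col3a1* and *Dcn* under the linear value of 10 in every library and *Col1a1* at or above it in 17. The neutrophil sum was 7.08 to 8.59 (median 7.82) in RSKi47 and 6.24 to 7.74 (median 6.50) in WT libraries. The part of these markers in the differences was not tested.

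The LPS response under RSKi47 was smaller than that of WT for *Cish* at 1 h (-1.02, SE 0.22, adjusted p = 0.000913) and 2 h (-1.41, SE 0.24, adjusted p = 1.61e-06) and for *Socs3* at 2 h (-1.10, SE 0.16, adjusted p = 2.07e-08). Without RSKi47 replicate 4 the values were -0.99, -1.19 and -0.92 (adjusted p = 0.00361, 0.000137 and 5.87e-06). With culture as a random replicate block *Socs3* at 1 h (-0.40, adjusted p = 0.0495) and *Socs2* at 2 h (-0.34, adjusted p = 0.0437) were called as well. Those are 0, 1 and 2 of the 4 genes at 0.5, 1 and 2 h, where 0.0251%, 5.54% and 21% of all genes were called, and at 0.5 h none had an unadjusted p below 0.05. RSKi47 was also compared directly with PD0325901. At 0.5 h *Socs1* (0.61, SE 0.19, adjusted p = 0.00675) and *Socs2* (0.32, SE 0.11, adjusted p = 0.0145) were higher with RSKi47, and 49.5% of all genes were called. At 1 h *Cish* was lower with RSKi47 (-0.39, SE 0.16, adjusted p = 0.0317), where 53.9% of all genes were called. The *Socs2* call was lost without PD0325901 replicate 2 or RSKi47 replicate 3 (adjusted p = 0.0514 and 0.0575) and under quantile normalization (adjusted p = 0.111), and the *Cish* call with PD0325901 replicates averaged in pairs (adjusted p = 0.0895) and without PD0325901 replicate 2 or 6 or RSKi47 replicate 2, 3 or 4 (adjusted p = 0.0523 to 0.188).

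The order of the group means separated the genes. At 1 h the order for *Cish* was WT (7.68), *Map3k8*[D270A] (7.16), PD0325901 (7.02), *Nfkb1*[SS/AA] (6.96), RSKi47 (6.63) and *Elk1*-/-*Elk4*-/- (6.60), and among neighbours in this order WT alone did not overlap the next. For *Socs3* the order at 1 h was WT (13.87), RSKi47 (13.69), *Elk1*-/-*Elk4*-/- (13.59), PD0325901 (13.53), *Map3k8*[D270A] (13.34) and *Nfkb1*[SS/AA] (12.83), and the libraries of neighbours did not overlap from PD0325901 downwards. The *Socs1* order at 1 h began with RSKi47 (7.09) and WT (7.01) and ended with *Map3k8*[D270A] (6.37), with overlap between all neighbours. For *Socs2*, *Map3k8*[D270A] (4.07) stood first and did not overlap the next, RSKi47 (3.72), and *Nfkb1*[SS/AA] (3.39) stood last. At 2 h WT stood first for *Socs2*, *Socs3* and *Cish* and below *Elk1*-/-*Elk4*-/- and *Map3k8*[D270A] cells for *Socs1*, and without LPS the range of the group means was narrow for *Socs3* (8.67 to 8.96) and *Cish* (4.59 to 4.87).

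Other genes of the JAK-STAT pathway were followed from a list of 78, of which 69 could be tested. In WT cells at 1 h, 40 of the 69 were called higher and 6 lower, and without the cytokine ligands 29 and 6 of 58, beside 46.8% of all genes called. The 11 cytokine ligands that passed the filter on low values were called higher, which supports nothing by itself, since a ligand that passed only through the LPS groups had to differ, and *Csf3*, *Il4*, *Il11*, *Il12a* and *Il13* did not pass. The largest differences were those of *Csf2* (5.39, SE 0.20, adjusted p = 2.08e-30), which encodes GM-CSF, *Il12b* (4.74) and *Il23a* (4.70), whose products form IL-23. Among 18 receptors 7 rose and 1 fell, with *Il10ra* (1.29), a chain of the IL-10 receptor, *Ifngr1* (0.75) and *Il2rg* (0.48) highest. The kinase genes *Jak2* (0.67) and *Jak1* (0.12) and the factors *Stat5a* (0.74) and *Stat3* (0.24) rose and *Stat2* fell (-0.54). Of the other 4 SOCS genes, *Socs7* (0.49) and *Socs5* (0.48) rose and *Socs6* fell (-0.56), with smaller differences than *Socs1*, *Socs3* and *Cish* at this time. *Cul5* (0.14), the cullin that the SOCS box recruits, and the phosphatase gene *Ptpn2* (0.64) rose, *Pias2* rose (0.30) and *Pias3* fell (-0.27). Of 9 target genes linked to STATs 8 rose, led by *Pim1* (2.96), *Junb* (2.87) and *Irf1* (2.69).

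In *Map3k8*[D270A] against WT cells at 2 h, 28 of the 69 genes were called lower and 5 higher, with a median difference of -0.10, against 27.7% of all genes called. *Il10* (-2.57, SE 0.14, adjusted p = 9.34e-21), *Il23a* (-1.70) and *Lif* (-1.32), a ligand of gp130 receptors, were among 6 of 11 ligands that were lower. *Il4ra* (-1.10), *Ifnar1* (-0.58), *Jak2* (-0.70), *Jak1* (-0.27), *Stat5a* (-0.59) and *Stat5b* (-0.34) were lower, and *Il27ra* (0.39) was higher. *Socs5* was lower (-0.23) and *Socs7* higher (0.17). *Cebpd* (-1.65), *Bcl3* (-0.67) and *Junb* (-0.49) were lower among the target genes, as were the brakes *Ptpn1* (-0.39), *Sh2b3* (-0.38) and *Pias4* (-0.27) and the elongin gene *Tceb1* (-0.20), a partner of the SOCS box.

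With PD0325901 against WT at 1 h, 25 of the 69 genes were called lower and 9 higher, against 35.7% of all genes called. *Ifnb1*, the gene of IFN-β, was higher (3.62, SE 0.25, adjusted p = 3.78e-23), and *Csf2* (-2.24) and *Lif* (-1.85) were lower. *Stat2* (0.61), *Gbp2* (0.80) and *Usp18* (0.63), which are known as interferon-induced genes, were higher, while *Stat4* (-0.46), *Junb* (-0.52) and *Bcl3* (-0.47) were lower. *Il27ra* (-0.35), *Lifr* (-0.35) and *Il10ra* (-0.30) were lower among the receptors, and no JAK kinase gene of the 4 was called. *Socs7* was higher (0.30) and *Socs5*, *Cul5* and *Sh2b3* were lower (-0.23, -0.12 and -0.09). In the remaining arms the list had 26 lower and 15 higher at 2 h in *Elk1*-/-*Elk4*-/- cells (50.8% of all genes called), 30 and 9 at 1 h in *Nfkb1*[SS/AA] cells (42.5%), and 29 and 13 at 2 h with RSKi47 (52.1%).

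**Figure D4:**
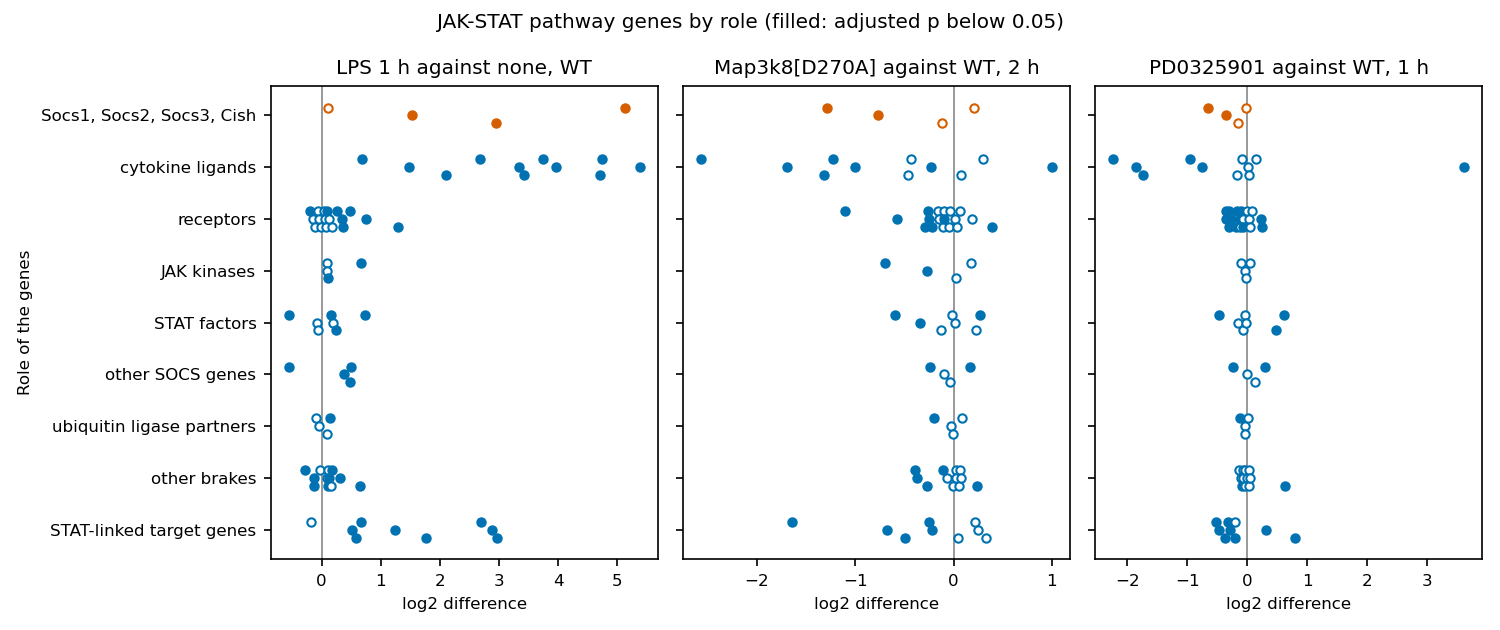
Difference in log2 value (horizontal axis) of each JAK-STAT pathway gene tested, by role (vertical axis), in 3 comparisons, with filled points for an adjusted p below 0.05. In WT cells at 1 h the 11 cytokine ligands that passed the filter lie to the right of 0 (5 others did not pass and are not drawn), and with PD0325901 *Ifnb1* stands alone at 3.62.

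Over the 25 groups of the series, the genes whose mean levels were most like those of each member by Pearson correlation were *March5*, *Nfkb1*, *Ppp1r15b*, *Pvrl2* and *Pstpip2* for *Socs1* (0.98 to 0.99), *Tnfaip3*, *Il10ra*, *Gadd45b*, *Pim1* and *Zc3h12a* for *Socs3* (0.97 to 0.99), *Nfkb2*, *Bcl3*, *Sbds*, *Rnd1* and *Vezf1* for *Cish* (0.98 to 0.99) and *Fscn1*, *C3*, *Efna2*, *Src* and *Cx3cl1* for *Socs2* (0.94 to 0.95). These correlations are descriptions of 25 points that share the time after LPS, and by Spearman correlation the first 5 genes had only *Nfkb1* in common for *Socs1* and *C3* for *Socs2*. Among the 4 genes the correlation was 0.94 between *Socs1* and *Cish*, 0.91 between *Socs1* and *Socs2*, 0.89 between *Socs2* and *Cish*, 0.76 between *Socs3* and *Cish*, 0.60 between *Socs1* and *Socs3* and 0.54 between *Socs2* and *Socs3*.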

How the data were processed

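RNA from 119 BMDM libraries was sequenced as single-end, strand-specific reads. According to the methods and processing notes, the authors aligned reads with STAR 2.5.1b to mm10, estimated expression per RefSeq gene with RSEM 1.2.29 and compared groups with DESeq2 1.10.1. The methods of the paper give other STAR and RSEM versions. The deposited values are normalized log2 values, 1 per gene and library, from -2.40 to 19.81, and the sources used here do not name their transformation. A single value above a limit of 25 (57.73, *Fosb*, RSKi47 replicate 1 at 1 h) was set missing. No intervals from counts were possible, and precision rests on replicates.

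The two-sided moderated test of limma 3.58.1 (R 4.3.3), without a trend, was used, with p values adjusted by the Benjamini-Hochberg method over all genes tested. WT, *Map3k8*[D270A] and *Elk1*-/-*Elk4*-/- cells were fitted over 62 libraries (11884 genes that reached a linear 10 in 4 or more), and other comparisons over all 119 (11971 genes that reached it in 3 or more), with WT as control. Where groups share WT libraries, their differences are not independent. No 2 libraries held the same values. The members, lists and tests were chosen with earlier results of these data known. The pathway genes named are, in each role, up to 3 called genes with the largest difference in the 3 comparisons printed (a gene that this rule names is not reported here), and the genes most like a member are the first 5 by correlation of group means. Alternatives were a replicate block, no filter, a trend, other scalings and thresholds, smaller or larger fits, and leaving out replicates. Using *Nfkb1*[SS/AA] replicates 1 to 3 or 4 to 6 alone was chosen after seeing the data. Same-numbered libraries of a genotype deviated together in every pair in WT (30 pairs, median correlation 0.48) and *Nfkb1*[SS/AA] cells (18 pairs, 0.40), so those numbers pair the times, whereas numbers shared by WT and *Map3k8*[D270A] cells did not (median -0.33).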

Additional observations from a re-analysis of the deposited data

Results flagged for a closer look

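Among the values of the 4 genes, 5 of 80 groups of 4 to 10 libraries held a library far from the others, and chance gives about 1 in 20. These were *Socs1* at 8.95 (nearest library 10.37) and *Cish* at 8.68 (nearest 9.55), both in RSKi47 replicate 4 at 2 h, *Socs2* at 3.05 (nearest 3.30) in PD0325901 replicate 2 at 0.5 h and at 3.42 (nearest 3.56) in PD0325901 replicate 5 at 1 h, and *Socs3* at 12.47 (nearest 12.12) in *Map3k8*[D270A] replicate 4 at 0.5 h.

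The LPS response differed from that of WT cells by the test of the difference itself in 13 cases. In *Map3k8*[D270A] cells it differed by 0.51 for *Socs2* at 1 h, -0.73 for *Socs3* at 2 h and -1.25 for *Cish* at 2 h. In *Elk1*-/-*Elk4*-/- cells it differed by -0.997 for *Cish* at 1 h, -0.72 for *Socs3* at 2 h and -1.23 for *Cish* at 2 h. In *Nfkb1*[SS/AA] cells at 1 h it differed by -0.88 for *Socs1*, -1.08 for *Socs3* and -0.86 for *Cish*. With PD0325901 it differed by -0.74 for *Cish* at 1 h, and with RSKi47 by -1.02 for *Cish* at 1 h, -1.10 for *Socs3* at 2 h and -1.41 for *Cish* at 2 h. The difference in *Socs3* between *Map3k8*[D270A] and WT cells at 0.5 h was lower in the second group of replicates than in the first by 0.67 (-0.67, limma, adjusted p = 0.000185). These groups were chosen from the data.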

How the results depend on the processing

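Of 3988 recomputed single-gene values, 3787 stayed on their side of the threshold, called values with their direction kept, while values not called could change sign. Of 370 recomputed counts 326 stayed within 1.5 times the count reported. *Socs3* in *Map3k8*[D270A] against WT cells at 0.5 h reversed to 0.31 in WT replicates 4 to 6 with *Map3k8*[D270A] replicates 1 to 3. The cause of the changes below was not tested.
With a difference of at least 1 also required, the members called over all times fell from 10 to 6 (LPS response of *Map3k8*[D270A]), 6 to 1 (*Map3k8*[D270A] against WT), 3 to 1 (its response, here and below the difference of the LPS response from that of WT), 4 to 2 (*Elk1*-/-*Elk4*-/- against WT), 3 to 1 (its response), 2 to 0 (*Elk1*-/-*Elk4*-/- against *Map3k8*[D270A]), 3 to 1 (*Nfkb1*[SS/AA] against WT), 5 to 3 (its LPS response against no LPS), 3 to 1 (its response), 3 to 0 (PD0325901 against WT), 1 to 0 (its response), 5 to 2 (RSKi47 against WT) and 3 to 0 (RSKi47 against PD0325901). The share of all genes called fell too, at 2 h from 27.7% to 0.665% for *Map3k8*[D270A] against WT, and was then 0.0673% to 2.09% over the comparisons between arms with LPS or without, other than PD0325901 against DMSO (0%), 0.00835% to 1.03% over the responses and 0.446% to 9.22% over the LPS responses of *Map3k8*[D270A] and *Nfkb1*[SS/AA] cells. At 0.693 (ln 2), where 0.177% to 5% of all genes were called between those arms and 1.32% and 6.41% in the LPS response of *Nfkb1*[SS/AA] cells, they were 2 for *Map3k8*[D270A] against WT, 0 for *Elk1*-/-*Elk4*-/- against *Map3k8*[D270A], 0 for PD0325901 against WT, 3 for the LPS response of *Nfkb1*[SS/AA] and 0 for RSKi47 against PD0325901. For the alternatives from here on the share of all genes called is not given, so their counts cannot be set against it. Quantile normalization gave 5 for *Nfkb1*[SS/AA] against WT and 8 for RSKi47 against WT. A fit of only the groups compared gave 5 for the response of *Map3k8*[D270A], 2 for that of PD0325901 and 6 for RSKi47 against PD0325901. WT replicates 4 to 6 with *Map3k8*[D270A] replicates 1 to 3 gave 6 for that response, PD0325901 replicates averaged in pairs gave 0 for its response, and *Nfkb1*[SS/AA] replicates 4 to 6 gave 5 against WT.
A replicate block with culture as a random term gave 5 (from 3) for the response of RSKi47, and with the number as a fixed term 6 (from 3) for *Nfkb1*[SS/AA] against WT and 0 (from 1) for the response of PD0325901. The fixed term called *Socs2* lower in *Nfkb1*[SS/AA] cells without LPS and at 0.5 and 1 h (-0.33, -0.32 and -0.29), in *Elk1*-/-*Elk4*-/- cells without LPS (-0.27), with PD0325901 at 0.5 h (-0.29) and with RSKi47 at 2 h (-0.32), and *Cish* lower at 0.5 h in *Map3k8*[D270A] (-0.44) and *Elk1*-/-*Elk4*-/- cells (-0.66) and with RSKi47 (-0.64). The block changed no call in the LPS responses of WT and *Nfkb1*[SS/AA] cells, where numbers pair the libraries. In the other arms the labels give a number alone and not every pair of same-numbered libraries correlated above 0.1, though 34 of 36 pairs did in *Map3k8*[D270A] cells, 20 of 24 in *Elk1*-/-*Elk4*-/- cells, 20 of 21 with RSKi47 and 14 of 33 with PD0325901, and 22 of 24, 12 of 16, 14 of 15 and 6 of 21 libraries correlated best with their own number.
Leaving out 1 replicate at a time gave 3 to 7 for *Elk1*-/-*Elk4*-/- against WT, 2 to 3 for its response, 5 to 6 for *Map3k8*[D270A] against WT, 2 to 4 for its response, 3 to 5 for *Nfkb1*[SS/AA] against WT, 2 to 5 for PD0325901 against WT, 0 to 1 for its response, 4 to 6 for RSKi47 against WT, 3 to 4 for its response and 1 to 3 for RSKi47 against PD0325901. Depth per library is unknown.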
